A study of Mus musculus with 11 samples.

Results

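Glycolysis splits glucose into pyruvate and yields ATP, and the pentose phosphate pathway branches off after the first step to make NADPH and ribose for nucleotides. Dividing thymocytes and tumor cells are known for a high flow through both, with much of the pyruvate reduced to lactate and exported. MYC is a transcription factor known to raise many of these genes. The genes described here are 37 members of these pathways: transporters of glucose and lactate, the glycolytic enzymes, the enzymes that decide what becomes of pyruvate, and the enzymes of the oxidative and non-oxidative pentose phosphate branches. Each was taken as the probe set whose only gene symbol was that of the member, with the brightest one over all arrays used where a gene had several. This found 33 of the 37, among 19938 genes with such a probe set. Gapdh appeared only on 25 probe sets shared with other symbols, and Eno1, Gpi1 and G6pdx (glucose-6-phosphate dehydrogenase, the entry to the oxidative branch) were not analysed here.

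Thymus RNA of FVB mice was measured on 11 Affymetrix arrays, 1 for each sample, to ask what loss of the DNA methyltransferase Dnmt3b does in lymphoma driven by MYC. Every mouse carried EμSR-tTA, an activator that switches on Teto transgenes in blood cells, and Rosa26LOXPEGFP, an EGFP reporter that Cre turns on. The 3 Dnmt3b-deficient lymphomas also carried both Teto-MYC and Teto-Cre and were Dnmt3b-/-. The 3 wild-type lymphomas carried Teto-MYC, had no Cre and were Dnmt3bF/F. The 2 pre-tumor samples had the genotype of the Dnmt3b-deficient lymphomas. The 3 normal thymocyte samples carried Teto-Cre, had no MYC transgene and were Dnmt3b+/+. Normal and pre-tumor thymi were taken at 24 days of age, tumors once disease was apparent. Per the labels, EGFP-positive cells were sorted from pre-tumor thymi but not from tumors, so stage and sorting cannot be told apart. The labels leave unsaid whether sorting was also used for the normal thymocytes, which bears on every comparison with these. Among the tumors, Cre and loss of Dnmt3b cannot be told apart. Pre-tumor samples and Dnmt3b-deficient lymphomas differ from normal thymocytes by both the MYC transgene and loss of Dnmt3b, and these lymphomas by tumor stage as well. Wild-type lymphomas differ from normal thymocytes by the MYC transgene, tumor stage, the lack of Cre and the Dnmt3bF/F alleles. Nor can these be told apart in the comparisons with normal thymocytes. The labels call the samples of a group biological replicates.

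Values are log2 levels with a floor at 3.32. Of the members, 1 value lay at this floor, that of Pdk2 in Dnmt3b-deficient lymphoma 2. Dnmt3b was read by 1 probe set at 5.26 to 5.49 in Dnmt3b-deficient lymphomas, 5.36 to 5.70 in wild-type lymphomas, 5.07 to 5.24 in pre-tumor thymocytes and 5.22 to 5.31 in normal thymocytes. Where its probes lie relative to the deleted part of the gene was not analysed here, and the value is no check of the genotype. Markers of T lineage cells (14 genes, among them Cd3e, Rag1 and Dntt) had a mean level of 7.40 to 7.79 in Dnmt3b-deficient lymphomas, 7.43 to 7.95 in wild-type lymphomas, 8.41 to 8.99 in pre-tumor thymocytes and 9.79 to 10.03 in normal thymocytes. Against normal thymocytes, 10, 11 and 6 of them fell in Dnmt3b-deficient lymphomas, wild-type lymphomas and pre-tumor thymocytes, and none rose. Of all probe sets with a gene 12.2%, 11.9% and 11.3% fell in these groups. Neutrophil markers (10 genes) averaged 6.65 and 6.46 in wild-type lymphomas 1 and 2 and 6.14 in Dnmt3b-deficient lymphoma 2, against 3.99 to 5.48 on the other 8 arrays, and macrophage markers (13 genes) were highest on the 2 wild-type lymphoma arrays as well, at 5.33 and 5.63. Of the macrophage markers 3 fell and none rose in each group against normal thymocytes, beside the same 12.2%, 11.9% and 11.3% of all probe sets. Ms4a7 (macrophages), Clec9a (dendritic cells) and Dcn (stroma) lay at the floor on every array. In such bulk samples fewer cells of a type and less RNA per cell cannot be told apart, and the part of other cell types in the results was not tested.

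MYC binds the E-box CACGTG, and the hypoxia-inducible factor binds sites with the core ACGTG, so both were sought, on both strands, in RefSeq promoter windows of 300 bases (250 before and 50 after a gene's start, GRCm38.p6); every CACGTG also holds ACGTG. Of the measured members, 31 had 46 windows. CACGTG lay in 6 windows of 6 members, 13.0% of windows, against 7.15% of all 32851 windows, and ACGTG lay in 45.7% of member windows, against 19.6% of all. Among members that rose in all 3 groups, CACGTG lay in 8.33% of windows (1 of 8 genes). Among members called in no comparison CACGTG lay in 16.0% (4 of 15 genes). ACGTG lay in 6 of 12 windows of the former and in 13 of 25 windows of the latter. The members with CACGTG were Slc16a1, Pfkm, Pfkfb2, Pfkfb3, Ldha and Pdk2. Member windows were also rich in CpG, with a median of 20 per window against 7 over all windows, and an ACGTG match contains a CpG. The 4 windows below are shown because the expression results turn on these genes: the lactate dehydrogenase subunits Ldha and Ldhb moved in opposite directions, Pdk2 fell and Slc16a1 was not called in any comparison, and both have a window with the E-box. Capitals mark CACGTG, and each sequence runs 5′ to 3′ on the gene's strand. Ldha lies at chr7:46845554-46845853 (plus strand), Ldhb at chr6:142507908-142508207 (minus strand), Pdk2 at chr11:95041322-95041621 (minus strand) and Slc16a1 at chr3:104638414-104638713 (plus strand).
Ldha: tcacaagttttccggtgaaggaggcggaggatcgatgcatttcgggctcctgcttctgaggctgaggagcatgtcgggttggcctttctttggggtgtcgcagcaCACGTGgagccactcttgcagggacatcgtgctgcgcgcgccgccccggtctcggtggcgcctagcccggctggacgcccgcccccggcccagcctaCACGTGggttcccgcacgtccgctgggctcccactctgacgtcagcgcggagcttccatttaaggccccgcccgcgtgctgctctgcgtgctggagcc
Ldhb: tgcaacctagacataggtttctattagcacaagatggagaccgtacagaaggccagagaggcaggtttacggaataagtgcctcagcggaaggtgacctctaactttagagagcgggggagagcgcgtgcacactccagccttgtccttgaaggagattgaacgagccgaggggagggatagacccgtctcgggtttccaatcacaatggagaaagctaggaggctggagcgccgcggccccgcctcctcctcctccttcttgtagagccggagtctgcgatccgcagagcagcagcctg
Pdk2: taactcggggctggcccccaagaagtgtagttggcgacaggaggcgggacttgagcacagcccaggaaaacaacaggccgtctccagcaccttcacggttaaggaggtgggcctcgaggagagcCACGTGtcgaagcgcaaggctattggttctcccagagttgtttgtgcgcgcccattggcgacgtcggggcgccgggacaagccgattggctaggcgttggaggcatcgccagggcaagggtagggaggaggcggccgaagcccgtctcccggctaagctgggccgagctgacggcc
Slc16a1: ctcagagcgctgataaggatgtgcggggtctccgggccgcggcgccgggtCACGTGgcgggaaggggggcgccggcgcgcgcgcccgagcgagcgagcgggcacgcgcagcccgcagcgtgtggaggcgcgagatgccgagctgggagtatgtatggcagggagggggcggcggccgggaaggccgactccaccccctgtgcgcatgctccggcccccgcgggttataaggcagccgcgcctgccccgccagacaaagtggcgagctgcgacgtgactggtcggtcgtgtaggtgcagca
The first base of the E-box lay 145 and 48 bases before the start in Ldha, 126 before it in Pdk2 and 200 before it in Slc16a1. The Ldhb window holds neither these letters nor ACGTG.

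Against normal thymocytes, glycolysis genes changed in all 3 MYC-transgenic groups, more of them upward than downward. A probe set counts as called at a Benjamini-Hochberg adjusted p under 0.05 from limma over 23410 probe sets with a gene, and "rose" and "fell" are used of called members only. In Dnmt3b-deficient lymphomas 12 members rose and 5 fell, 17 of 33, against 23.5% of all probe sets (11.3% up, 12.2% down). In wild-type lymphomas 11 rose and 4 fell, against 23.3% of all probe sets (11.3% up, 11.9% down). In pre-tumor thymocytes 8 rose and 4 fell, against 22.5% (11.2% up, 11.3% down). The shares of all probe sets given throughout include 3267 at the floor on every array. These cannot be called, and no member is among them. Without them, 6085, 6228 and 6001 of 20143 probe sets were called in Dnmt3b-deficient lymphomas, wild-type lymphomas and pre-tumor thymocytes. With the brightest 17557 alone, 6172, 6272 and 5980 were. Members called in each of these settings numbered 17, 16 and 14. Among probe sets off the floor the share called was thus higher. The median member difference from normal thymocytes was 0.25 in Dnmt3b-deficient lymphomas, 0.17 in wild-type lymphomas and 0.14 in pre-tumor thymocytes on the log2 scale, with medians of 0.00, 0.00 and -0.03 over all probe sets. With a fold change of at least 2 asked for as well, 8 rose and 4 fell in Dnmt3b-deficient lymphomas, 4 rose and 4 fell in wild-type lymphomas and 4 rose and 3 fell in pre-tumor thymocytes. At that cut 1358 of all 23410 probe sets rose and 1005 fell in Dnmt3b-deficient lymphomas. In wild-type lymphomas 1385 rose and 887 fell, and in pre-tumor thymocytes 1547 rose and 744 fell. The surplus of member rises over falls was thus lost in wild-type lymphomas and became smaller in the other groups. The 3 comparisons share the same normal arrays, so their calls are not independent of each other.

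The same 8 members rose in all 3 groups: Hk2, Aldoa, Tpi1, Pgk1, Pgam1, Ldha, Pdk1 and Pdha1. Slc16a5, Ldhb and Pdk2 fell in all 3. Pfkl, Pfkp and Tkt rose in both lymphoma groups and Slc16a3 rose in Dnmt3b-deficient lymphomas, while H6pd fell in both lymphoma groups and Taldo1 in Dnmt3b-deficient lymphomas and pre-tumor thymocytes. The other 16 members, among them the glucose transporters Slc2a1 and Slc2a3 and the pyruvate kinase Pkm, were not called in any comparison by the probe sets used. For Hk1, 1 of the 16, a second probe set was called and is given below. Whether a member called in one group and not in another differs between these groups is a separate test, given below for the Dnmt3b-deficient lymphomas against each of the other MYC-transgenic groups.

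**Figure D1:**
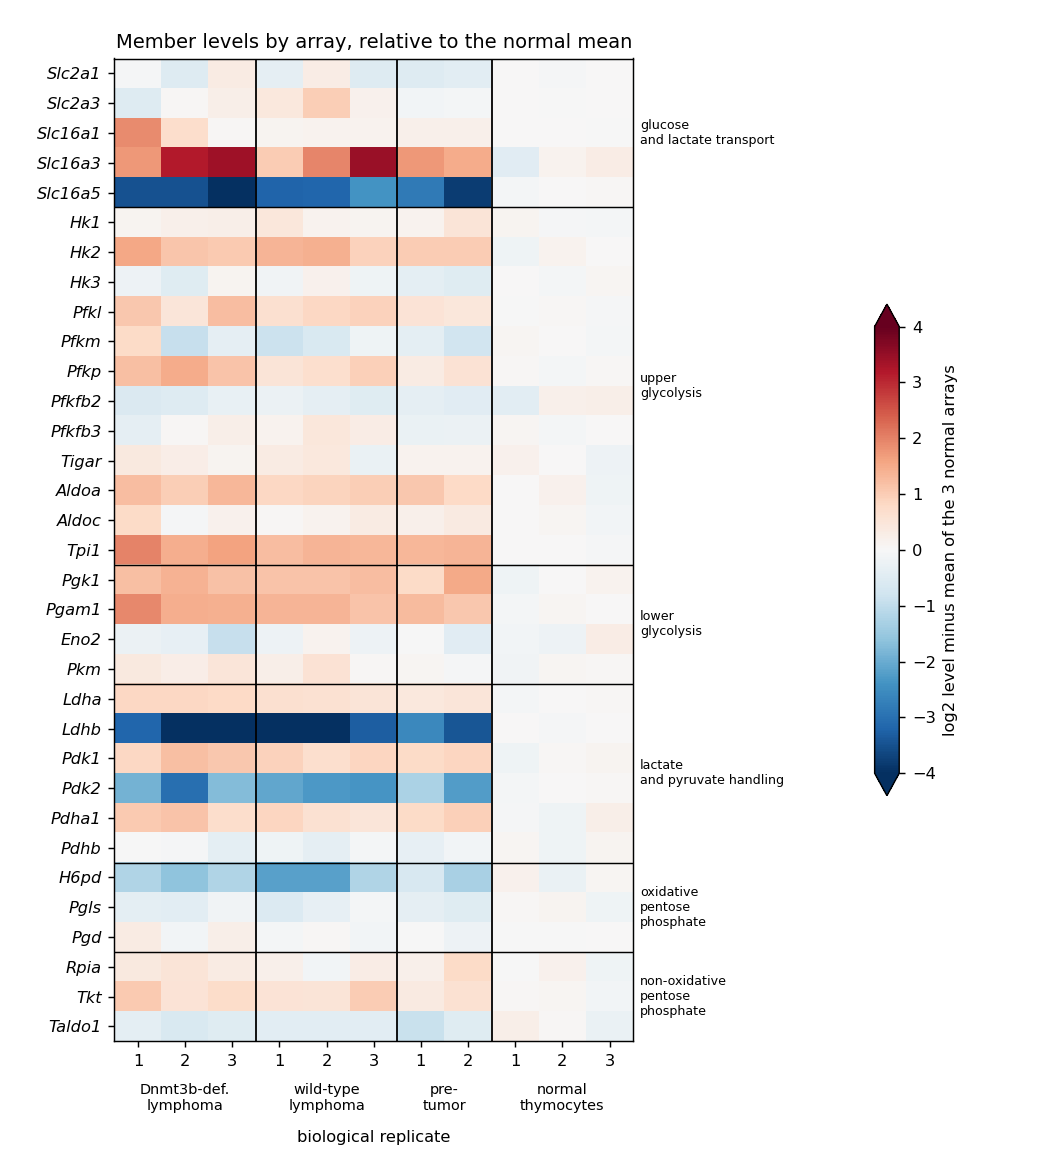
Each row is 1 of the 33 measured members in pathway order and each column 1 array; colour gives the log2 level minus the mean of the 3 normal thymocyte arrays, and differences beyond 4 take the end colour. Hk2, Aldoa, Tpi1, Pgk1 and Pgam1 are red and Slc16a5, Ldhb and Pdk2 blue on all 8 arrays of MYC-transgenic mice.

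Transport of glucose and lactate. No glucose transporter was called, while the monocarboxylate carriers, which move lactate and pyruvate across membranes, went in different directions. Slc2a1, the widely expressed glucose transporter GLUT1, read 7.89, 7.41 and 8.27 in Dnmt3b-deficient lymphomas, 7.56, 8.23 and 7.41 in wild-type lymphomas, 7.41 and 7.52 in pre-tumor thymocytes and 7.95, 7.90 and 7.96 in normal thymocytes. The lymphomas lay on both sides of the tight normal values and both pre-tumor arrays below them. Slc2a3, the high-affinity transporter GLUT3, read 7.22, 7.76 and 7.95 in Dnmt3b-deficient lymphomas, 8.14, 8.72 and 7.90 in wild-type lymphomas, 7.60 and 7.64 in pre-tumor thymocytes and 7.73, 7.69 and 7.74 in normal thymocytes. Its 2 highest arrays, wild-type lymphomas 1 and 2, are those with the highest macrophage and neutrophil markers given above, and the part of these cells was not tested.

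Slc16a3 encodes MCT4, a carrier known for lactate export. It read 7.74, 9.15 and 9.38 in Dnmt3b-deficient lymphomas, 7.01, 7.94 and 9.45 in wild-type lymphomas, 7.74 and 7.47 in pre-tumor thymocytes and 5.54, 6.14 and 6.30 in normal thymocytes. All 8 arrays of MYC-transgenic mice lay above all 3 normal ones, with a spread of over 2 log2 units among the wild-type lymphomas. It rose by 2.76 ± 0.66 (SE) in Dnmt3b-deficient lymphomas, 6.79-fold (adjusted p = 0.0209), with differences of 2.14 ± 0.66 in wild-type lymphomas (adjusted p = 0.0553) and 1.61 ± 0.74 in pre-tumor thymocytes (adjusted p = 0.176). The call in Dnmt3b-deficient lymphomas was lost without normal replicate 1 (adjusted p = 0.0692) or 2 (0.0575) or without Dnmt3b-deficient lymphoma 2 (0.0723) or 3 (0.0655). In wild-type lymphomas Slc16a3 was called in 7 of 24 alternative settings. These were without wild-type lymphoma 1 (0.0344) or Dnmt3b-deficient lymphoma 1 (0.0442), and settings that kept all arrays (0.0134 to 0.0491). Among the latter were centred array medians (0.0353) and a replicate block (0.0276).

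Slc16a5, a further carrier of this family, went the other way. It read 5.71, 5.72 and 5.03 in Dnmt3b-deficient lymphomas, 5.98, 6.03 and 6.79 in wild-type lymphomas, 6.37 and 5.41 in pre-tumor thymocytes and 9.13, 9.19 and 9.25 in normal thymocytes. Every array of a MYC-transgenic mouse lay more than 2 log2 units below every normal one. It fell in all 3 groups, with differences of -3.70 ± 0.32 in Dnmt3b-deficient lymphomas (adjusted p = 0.00046), -2.92 ± 0.32 in wild-type lymphomas (adjusted p = 0.00111) and -3.30 ± 0.36 in pre-tumor thymocytes (adjusted p = 0.00186), which is 13.0-, 7.57- and 9.87-fold lower. Slc16a1, which encodes the carrier MCT1, read 11.19, 10.002 and 9.32 in Dnmt3b-deficient lymphomas, 9.39, 9.43 and 9.43 in wild-type lymphomas, 9.50 and 9.49 in pre-tumor thymocytes and 9.29, 9.30 and 9.27 in normal thymocytes. Its level stood out in Dnmt3b-deficient lymphomas 1 and 2, no comparison called it, and it is the gene whose E-box window is printed above.

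**Figure D2:**
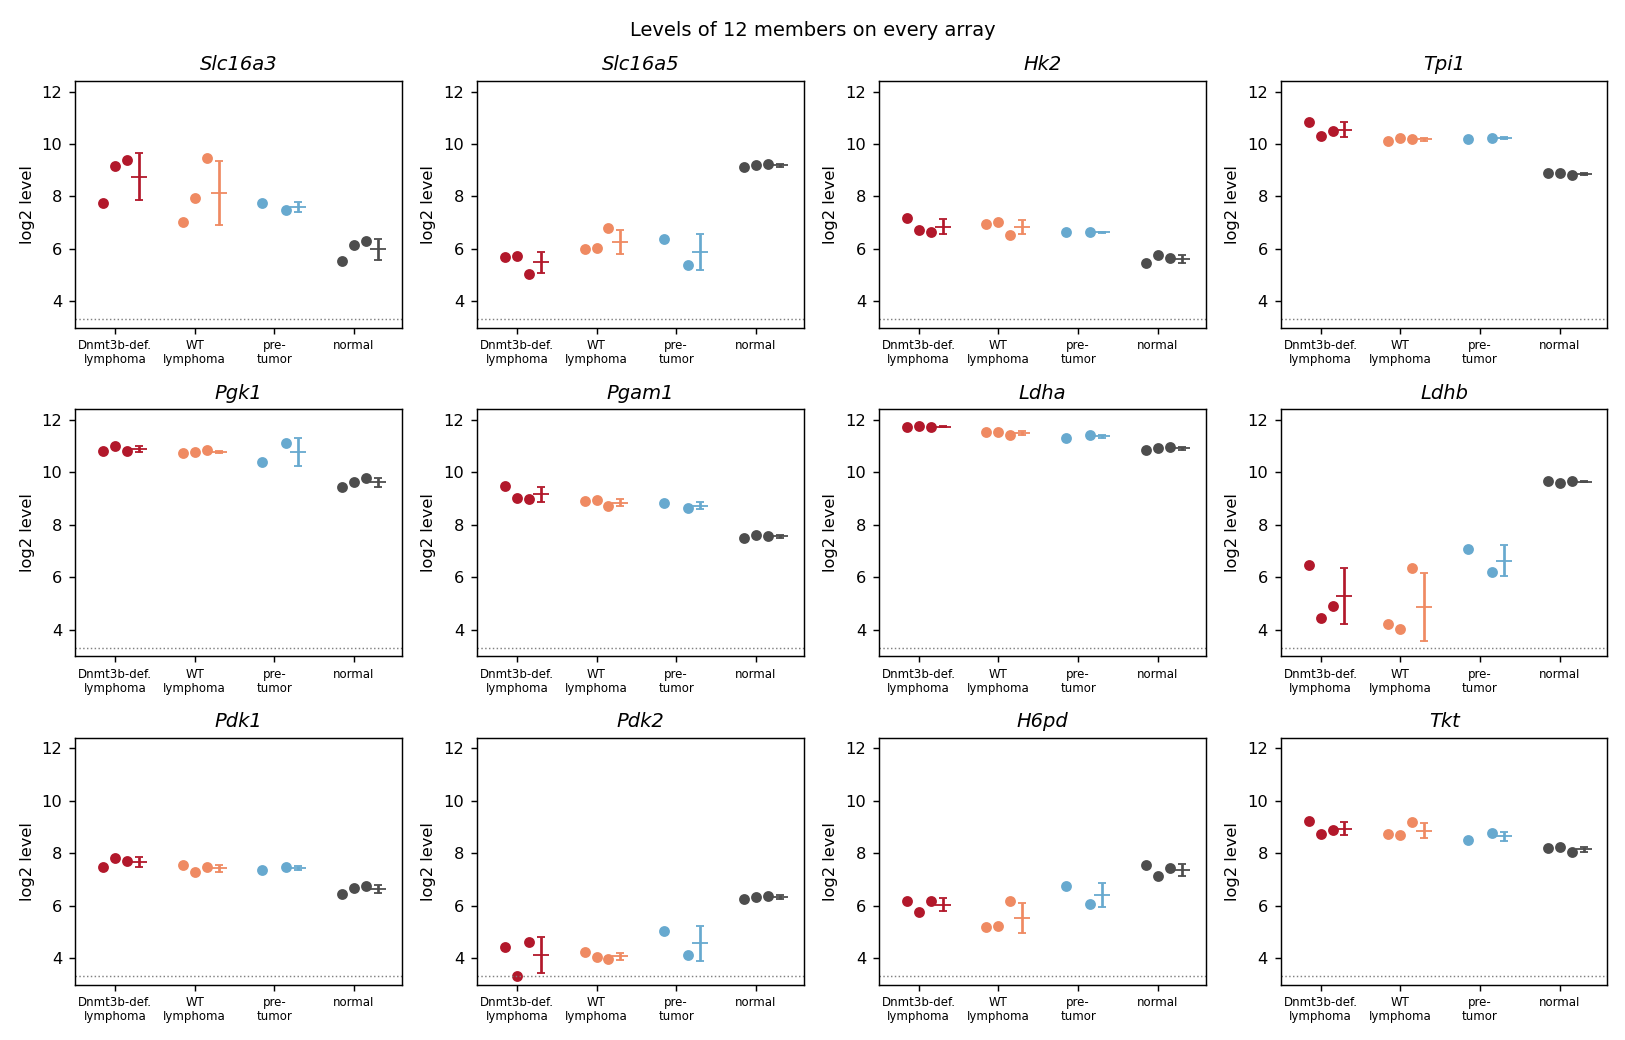
Log2 level of 12 members on each of the 11 arrays, by group; points are arrays, the bar beside them is the group mean with its SD (n = 3, and n = 2 for pre-tumor), and the dotted line is the floor at 3.32. Ldhb, Slc16a5 and Pdk2 are highest in normal thymocytes and Tpi1, Pgk1, Pgam1 and Hk2 lowest there, with no overlap between the normal arrays and any other group.

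Upper glycolysis. By the probe sets used, the 12 measured genes from hexokinase to triose phosphate isomerase held 5 rises and no fall in each lymphoma group. They held 3 rises and no fall in pre-tumor thymocytes. Of all probe sets 11.3%, 11.3% and 11.2% rose in Dnmt3b-deficient lymphomas, wild-type lymphomas and pre-tumor thymocytes, and 12.2%, 11.9% and 11.3% fell. Hk2 is the inducible hexokinase, the enzyme that traps glucose in the cell. It read 7.17, 6.72 and 6.65 in Dnmt3b-deficient lymphomas, 6.97, 7.04 and 6.55 in wild-type lymphomas, 6.63 and 6.65 in pre-tumor thymocytes and 5.45, 5.78 and 5.64 in normal thymocytes. It rose by 1.23 ± 0.18 in Dnmt3b-deficient lymphomas (adjusted p = 0.00251), by 1.23 ± 0.18 in wild-type lymphomas (adjusted p = 0.00286) and by 1.02 ± 0.20 in pre-tumor thymocytes (adjusted p = 0.0108), about the same size in each group. Hk3, a hexokinase found in myeloid cells, stayed low at 4.25, 3.94 and 4.54 in Dnmt3b-deficient lymphomas, 4.29, 4.63 and 4.28 in wild-type lymphomas, 4.04 and 3.97 in pre-tumor thymocytes and 4.44, 4.35 and 4.53 in normal thymocytes. Its only difference at an unadjusted p under 0.05 was -0.43 ± 0.18 in pre-tumor thymocytes (adjusted p = 0.127). Without pre-tumor replicate 2 the pre-tumor call of Hk2 was lost (adjusted p = 0.0759).

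Hk1, the housekeeping hexokinase, depends on which of its 2 probe sets is read. The brighter one, used by the rule, read 11.72, 11.80 and 11.85 in Dnmt3b-deficient lymphomas, 12.05, 11.75 and 11.71 in wild-type lymphomas, 11.75 and 12.12 in pre-tumor thymocytes and 11.72, 11.55 and 11.54 in normal thymocytes, and was not called. Its neighbours by number belong to chromosome 14, while Hk1 lies on chromosome 10, and all 16 probe sets shared between Hk1 and other symbols also carry the ribosomal protein gene Rpl17. The other probe set, among neighbours of chromosome 10, read 6.46, 6.40 and 6.83 in Dnmt3b-deficient lymphomas, 6.30, 6.15 and 6.66 in wild-type lymphomas, 6.63 and 6.41 in pre-tumor thymocytes and 7.41, 7.47 and 7.54 in normal thymocytes. By this probe set Hk1 was lower, with differences of -0.91 ± 0.16 in Dnmt3b-deficient lymphomas (adjusted p = 0.00549), -1.10 ± 0.16 in wild-type lymphomas (adjusted p = 0.00289) and -0.95 ± 0.18 in pre-tumor thymocytes (adjusted p = 0.00934). The pre-tumor difference of the brighter one was 0.33 ± 0.14 (adjusted p = 0.133) and 0.52 without pre-tumor replicate 1, the opposite sign. The brighter one lies within the mean levels of the 16 shared probe sets, 9.97 to 12.03. In the fit of all arrays only the probe set among neighbours of chromosome 10 was called, as lower in all 3 groups. The direction of Hk1 thus rests on the probe set read.

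Phosphofructokinase makes fructose-1,6-bisphosphate, the committed step. Of its subunits, Pfkp read 9.33, 9.61 and 9.27 in Dnmt3b-deficient lymphomas, 8.65, 8.80 and 9.10 in wild-type lymphomas, 8.47 and 8.72 in pre-tumor thymocytes and 8.17, 8.07 and 8.17 in normal thymocytes. The Dnmt3b-deficient lymphomas lay above all other arrays. Pfkp rose by 1.26 ± 0.14 in Dnmt3b-deficient lymphomas (adjusted p = 0.000856) and by 0.71 ± 0.14 in wild-type lymphomas (adjusted p = 0.00842), and its difference in pre-tumor thymocytes was 0.46 ± 0.15 (adjusted p = 0.0668, and 0.0391 without wild-type lymphoma 3). The liver-type subunit Pfkl rose by 0.93 ± 0.18 in Dnmt3b-deficient lymphomas (adjusted p = 0.00913) and by 0.79 ± 0.18 in wild-type lymphomas (adjusted p = 0.0188), with 0.50 ± 0.20 in pre-tumor thymocytes (adjusted p = 0.131, and 0.0125 without Dnmt3b-deficient lymphoma 2). The wild-type lymphoma call of Pfkl was lost without normal replicate 1, 2 or 3 or without wild-type lymphoma 2 or 3, with adjusted p of 0.0521 to 0.0576. The muscle-type subunit Pfkm was not called and read 8.37, 6.68 and 7.24 in Dnmt3b-deficient lymphomas, 6.74, 6.98 and 7.42 in wild-type lymphomas, 7.22 and 6.84 in pre-tumor thymocytes and 7.67, 7.62 and 7.51 in normal thymocytes, so the first Dnmt3b-deficient lymphoma alone was above the normal arrays.

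Pfkfb2, Pfkfb3 and Tigar set the level of fructose-2,6-bisphosphate, the activator of phosphofructokinase, and none was called. Their largest difference from normal thymocytes was that of Pfkfb2 in Dnmt3b-deficient lymphomas, -0.46 ± 0.18 (adjusted p = 0.110), which was called without normal replicate 1 (0.00664). Aldolase splits fructose-1,6-bisphosphate. The form of most tissues, Aldoa, read 10.81, 10.56 and 10.88 in Dnmt3b-deficient lymphomas, 10.40, 10.46 and 10.56 in wild-type lymphomas, 10.64 and 10.36 in pre-tumor thymocytes and 9.58, 9.73 and 9.40 in normal thymocytes. It rose by 1.18 ± 0.12 in Dnmt3b-deficient lymphomas (adjusted p = 0.000728), by 0.91 ± 0.12 in wild-type lymphomas (adjusted p = 0.00222) and by 0.94 ± 0.14 in pre-tumor thymocytes (adjusted p = 0.00404). The brain form Aldoc was not called and its group means ran from 4.62 to 4.92. Tpi1, the triose phosphate isomerase, read 10.85, 10.32 and 10.48 in Dnmt3b-deficient lymphomas, 10.11, 10.23 and 10.21 in wild-type lymphomas, 10.19 and 10.24 in pre-tumor thymocytes and 8.89, 8.89 and 8.82 in normal thymocytes. It had the largest rise of the upper glycolysis genes in each group, by 1.68 ± 0.12 in Dnmt3b-deficient lymphomas (3.21-fold, adjusted p = 0.000241), 1.31 ± 0.12 in wild-type lymphomas (2.48-fold, adjusted p = 0.000719) and 1.35 ± 0.14 in pre-tumor thymocytes (2.54-fold, adjusted p = 0.00142).

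Lower glycolysis. Pgk1 and Pgam1 rose in all 3 groups, and Eno2 and Pkm were not called. Pgk1, the first ATP-yielding kinase, read 10.84, 11.02 and 10.81 in Dnmt3b-deficient lymphomas, 10.75, 10.77 and 10.84 in wild-type lymphomas, 10.39 and 11.14 in pre-tumor thymocytes and 9.45, 9.64 and 9.78 in normal thymocytes. It rose by 1.26 ± 0.18 in Dnmt3b-deficient lymphomas (adjusted p = 0.00239) and by 1.16 ± 0.18 in wild-type lymphomas (adjusted p = 0.00374). In pre-tumor thymocytes it rose by 1.14 ± 0.20 (adjusted p = 0.00757, and 0.0933 with only the pre-tumor and normal arrays fitted). The lowest MYC-transgenic array was still above the highest normal one. The probe set used has neighbours of chromosome 12, while Pgk1 lies on the X chromosome. The one among X-chromosome neighbours rose too, by 1.22 ± 0.17, 1.12 ± 0.17 and 1.11 ± 0.19 in the same 3 groups. The 2 read nearly alike on every array, for example 10.75 and 10.72 in wild-type lymphoma 1. A further Pgk1 probe set had the same values as the one used. Whether they share probes was not analysed here, so they are not taken as independent reads. Pgam1, the phosphoglycerate mutase of most tissues, read 9.49, 9.02 and 8.98 in Dnmt3b-deficient lymphomas, 8.91, 8.93 and 8.72 in wild-type lymphomas, 8.84 and 8.64 in pre-tumor thymocytes and 7.50, 7.63 and 7.57 in normal thymocytes. It rose by 1.60 ± 0.14 in Dnmt3b-deficient lymphomas (3.02-fold, adjusted p = 0.00044), by 1.29 ± 0.14 in wild-type lymphomas (adjusted p = 0.00101) and by 1.17 ± 0.15 in pre-tumor thymocytes (adjusted p = 0.00301).

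Pkm, the pyruvate kinase whose splice forms differ between resting and dividing tissue, read 10.59, 10.49 and 10.69 in Dnmt3b-deficient lymphomas, 10.45, 10.78 and 10.27 in wild-type lymphomas, 10.30 and 10.18 in pre-tumor thymocytes and 10.08, 10.30 and 10.25 in normal thymocytes. A gene-level probe set does not tell the splice forms apart. Its difference was 0.38 ± 0.13 in Dnmt3b-deficient lymphomas (adjusted p = 0.0789), a call only without wild-type lymphoma 2 (0.0226) or 3 (0.0475) among the settings that left out an array. The brighter of its 2 probe sets has neighbours of chromosome 5, and the one among neighbours of chromosome 9, where Pkm lies, gave 0.41 ± 0.15 (adjusted p = 0.102). The neuronal enolase Eno2 had group means of 3.97 in Dnmt3b-deficient lymphomas, 4.39 in wild-type lymphomas, 4.23 in pre-tumor thymocytes and 4.47 in normal thymocytes, near the floor.

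Lactate and pyruvate. Of the 6 genes of this class 3 rose (Ldha, Pdk1, Pdha1) and 2 fell (Ldhb, Pdk2) in every group against normal thymocytes. Of all probe sets 11.2% to 11.3% rose and 11.3% to 12.2% fell in these groups. Lactate dehydrogenase is built of A and B subunits, and the B form favours the reaction from lactate to pyruvate. Ldha read 11.73, 11.76 and 11.72 in Dnmt3b-deficient lymphomas, 11.56, 11.53 and 11.44 in wild-type lymphomas, 11.33 and 11.41 in pre-tumor thymocytes and 10.85, 10.93 and 10.98 in normal thymocytes. The 4 groups did not overlap, with Dnmt3b-deficient lymphomas on top. Ldha rose by 0.82 ± 0.04 in Dnmt3b-deficient lymphomas (1.76-fold, adjusted p = 9.71e-05), by 0.59 ± 0.04 in wild-type lymphomas (1.50-fold, adjusted p = 0.000384) and by 0.45 ± 0.05 in pre-tumor thymocytes (1.37-fold, adjusted p = 0.0017). Its rise was smaller than those of Tpi1 or Pgam1, but its spread between arrays was also small.

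Ldhb read 6.48, 4.44 and 4.92 in Dnmt3b-deficient lymphomas, 4.24, 4.03 and 6.34 in wild-type lymphomas, 7.07 and 6.22 in pre-tumor thymocytes and 9.68, 9.62 and 9.66 in normal thymocytes. The 3 normal arrays lay close together and above all the others, and in each lymphoma group 1 array was well above its other 2. Ldhb fell, with differences of -4.37 ± 0.73 in Dnmt3b-deficient lymphomas (20.7-fold, adjusted p = 0.00447), -4.78 ± 0.73 in wild-type lymphomas (27.5-fold, adjusted p = 0.00347) and -3.01 ± 0.81 in pre-tumor thymocytes (8.06-fold, adjusted p = 0.0342). The difference was -4.97 without Dnmt3b-deficient lymphoma 1 and, in wild-type lymphomas, -5.52 without wild-type lymphoma 3, the high array of each group. The probe set used has neighbours of chromosome 19. The one among neighbours of chromosome 6, where Ldhb lies, read 4.49, 4.72 and 3.59 in Dnmt3b-deficient lymphomas, 3.64, 3.84 and 4.98 in wild-type lymphomas, 6.16 and 5.34 in pre-tumor thymocytes and 7.59, 7.19 and 7.50 in normal thymocytes, with differences of -3.16 ± 0.44 in Dnmt3b-deficient lymphomas (adjusted p = 0.00222), -3.27 ± 0.44 in wild-type lymphomas (adjusted p = 0.0023) and -1.67 ± 0.49 in pre-tumor thymocytes (adjusted p = 0.0471). The pre-tumor call of the brighter probe set was lost without any 1 of the 5 pre-tumor and normal arrays (adjusted p of 0.0685 without pre-tumor replicate 1, 0.217 without replicate 2 and 0.0745 to 0.0824 without normal replicate 1, 2 or 3) and without Dnmt3b-deficient lymphoma 3 (0.0508).

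**Figure D3:**
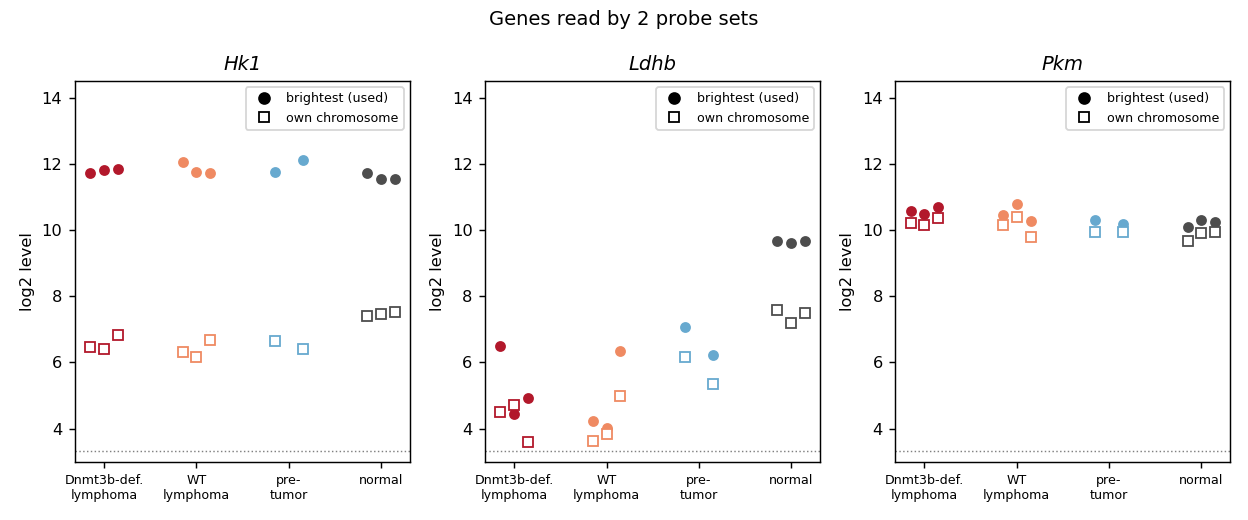
Log2 levels of Hk1, Ldhb and Pkm by the brighter of 2 probe sets (filled circles, the one used) and by the probe set among neighbours on the gene's own chromosome (open squares), with 1 point per array and the floor dotted at 3.32. Both probe sets of Ldhb are highest in normal thymocytes, while for Hk1 only the dimmer one is.

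Pyruvate dehydrogenase carries pyruvate into the mitochondrial cycle, and its kinases switch it off by phosphorylation. The kinase Pdk1 read 7.47, 7.83 and 7.72 in Dnmt3b-deficient lymphomas, 7.55, 7.29 and 7.48 in wild-type lymphomas, 7.38 and 7.50 in pre-tumor thymocytes and 6.46, 6.68 and 6.75 in normal thymocytes. It rose by 1.04 ± 0.12 in Dnmt3b-deficient lymphomas (adjusted p = 0.00103), by 0.81 ± 0.12 in wild-type lymphomas (adjusted p = 0.00299) and by 0.81 ± 0.13 in pre-tumor thymocytes (adjusted p = 0.0059, and 0.0544 without pre-tumor replicate 2). The related kinase Pdk2 read 4.45, 3.32 and 4.61 in Dnmt3b-deficient lymphomas, 4.24, 4.04 and 3.98 in wild-type lymphomas, 5.05 and 4.11 in pre-tumor thymocytes and 6.26, 6.34 and 6.39 in normal thymocytes. These kinases thus went in opposite directions, with no overlap with the normal arrays for either. Pdk2 fell, with differences of -2.21 ± 0.36 in Dnmt3b-deficient lymphomas, where 1 array at the floor limits its size (adjusted p = 0.00425), -2.25 ± 0.36 in wild-type lymphomas (adjusted p = 0.00439) and -1.75 ± 0.40 in pre-tumor thymocytes (adjusted p = 0.0194, but 0.158 without pre-tumor replicate 2 and 0.0545 without normal replicate 2).

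Of the subunits of the dehydrogenase itself, Pdha1, which carries the phosphorylation sites, read 9.51, 9.59 and 9.15 in Dnmt3b-deficient lymphomas, 9.32, 9.05 and 8.93 in wild-type lymphomas, 9.22 and 9.42 in pre-tumor thymocytes and 8.41, 8.27 and 8.68 in normal thymocytes. It rose by 0.96 ± 0.16 in Dnmt3b-deficient lymphomas (adjusted p = 0.00475), by 0.64 ± 0.16 in wild-type lymphomas (adjusted p = 0.0257) and by 0.87 ± 0.18 in pre-tumor thymocytes (adjusted p = 0.0136). Its partner Pdhb was not called, with means of 8.61, 8.56 and 8.55 in these groups and 8.77 in normal thymocytes. The wild-type lymphoma call of Pdha1 was lost without normal replicate 1 or 2 or wild-type lymphoma 1 or 2 (adjusted p of 0.0606 to 0.0863), and its pre-tumor call without pre-tumor replicate 2 (0.111).

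Pentose phosphate branches. The oxidative branch, which makes NADPH, held no rise: of its 3 measured genes H6pd fell and Pgls and Pgd were not called. H6pd, an enzyme of the endoplasmic reticulum with glucose-6-phosphate dehydrogenase activity, read 6.19, 5.77 and 6.18 in Dnmt3b-deficient lymphomas, 5.21, 5.22 and 6.19 in wild-type lymphomas, 6.74 and 6.08 in pre-tumor thymocytes and 7.57, 7.13 and 7.46 in normal thymocytes. All MYC-transgenic arrays lay below the normal ones. It fell, with differences of -1.33 ± 0.31 in Dnmt3b-deficient lymphomas (adjusted p = 0.0179) and -1.84 ± 0.31 in wild-type lymphomas (adjusted p = 0.00514), and its difference in pre-tumor thymocytes was -0.97 ± 0.34 (adjusted p = 0.0865, and 0.0311 without wild-type lymphoma 3). The call in Dnmt3b-deficient lymphomas was lost without normal replicate 1 (0.0601) or 3 (0.0527) or Dnmt3b-deficient lymphoma 2 (0.0645). Pgls, the lactonase, differed by -0.41 ± 0.15 in pre-tumor thymocytes (adjusted p = 0.101). Pgd, the second NADPH-making step, had means of 8.81 in Dnmt3b-deficient lymphomas, 8.62 in wild-type lymphomas, 8.57 in pre-tumor thymocytes and 8.67 in normal thymocytes.

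The non-oxidative branch shuttles sugars between ribose phosphate and glycolysis. Tkt, the transketolase, read 9.22, 8.72 and 8.90 in Dnmt3b-deficient lymphomas, 8.73, 8.70 and 9.19 in wild-type lymphomas, 8.53 and 8.78 in pre-tumor thymocytes and 8.20, 8.24 and 8.06 in normal thymocytes. It rose by 0.78 ± 0.17 in Dnmt3b-deficient lymphomas (adjusted p = 0.0148) and by 0.70 ± 0.17 in wild-type lymphomas (adjusted p = 0.0229), with 0.48 ± 0.19 in pre-tumor thymocytes (adjusted p = 0.12). Its partner Taldo1, the transaldolase, read 6.94, 6.73 and 6.85 in Dnmt3b-deficient lymphomas, 6.91, 6.91 and 6.90 in wild-type lymphomas, 6.44 and 6.84 in pre-tumor thymocytes and 7.55, 7.38 and 7.05 in normal thymocytes. Every MYC-transgenic array was below the lowest normal one, in the direction opposite to Tkt. Taldo1 fell, with differences of -0.49 ± 0.14 in Dnmt3b-deficient lymphomas (adjusted p = 0.0463) and -0.69 ± 0.16 in pre-tumor thymocytes (adjusted p = 0.0203), and the wild-type lymphomas differed by -0.42 ± 0.14 (adjusted p = 0.0771, or 0.0235 without normal replicate 3). Rpia, the ribose-5-phosphate isomerase, differed by 0.41 ± 0.17 in Dnmt3b-deficient lymphomas (adjusted p = 0.131) and by 0.48 ± 0.19 in pre-tumor thymocytes (adjusted p = 0.113, and 0.0318 without pre-tumor replicate 1).

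Both called genes of this branch rested on single arrays in part. The wild-type lymphoma call of Tkt was lost without any 1 of the 3 normal arrays (adjusted p of 0.0554 to 0.0687). The Dnmt3b-deficient lymphoma call of Taldo1 was lost without any 1 of normal replicate 1 or 2 or the 6 lymphoma arrays (0.0702 to 0.141), and its pre-tumor call without normal replicate 2 (0.0614) or pre-tumor replicate 1 (0.107).

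Loss of Dnmt3b among the lymphomas. Between Dnmt3b-deficient and wild-type lymphomas 0 of 33 members were called by limma, against 0.00854% of all probe sets. At an unadjusted p under 0.05 there were 5 of the 33, against 6.72% of all probe sets, namely Pfkp, higher by 0.55 ± 0.14 (95% interval 0.23 to 0.86, adjusted p = 0.472), Tpi1, by 0.37 ± 0.12 (0.09 to 0.65, adjusted p = 0.653), Ldha, by 0.23 ± 0.04 (0.13 to 0.33, adjusted p = 0.287), Slc16a5, with -0.78 ± 0.32 (-1.54 to -0.03, adjusted p = 0.729), and Slc2a3, with -0.61 ± 0.24 (-1.17 to -0.05, adjusted p = 0.71). Of the members, 23 had a positive and 10 a negative difference, with a median of 0.13. Groups did not overlap for 5 members that were higher in Dnmt3b-deficient lymphomas (Pfkp, Tpi1, Pgam1, Ldha, Rpia), against 4.87% of all probe sets, and for 2 that were lower (Slc16a5, Eno2), against 3.63%. For 26 of 33 members the 95% interval of the difference stayed within 1 log2 unit of 0 in both directions. It did not for Slc2a3, Slc16a1, Slc16a3, Slc16a5, Pfkm, Ldhb and H6pd, where the interval reaches past a 2-fold difference in at least 1 direction.

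**Figure D4:**
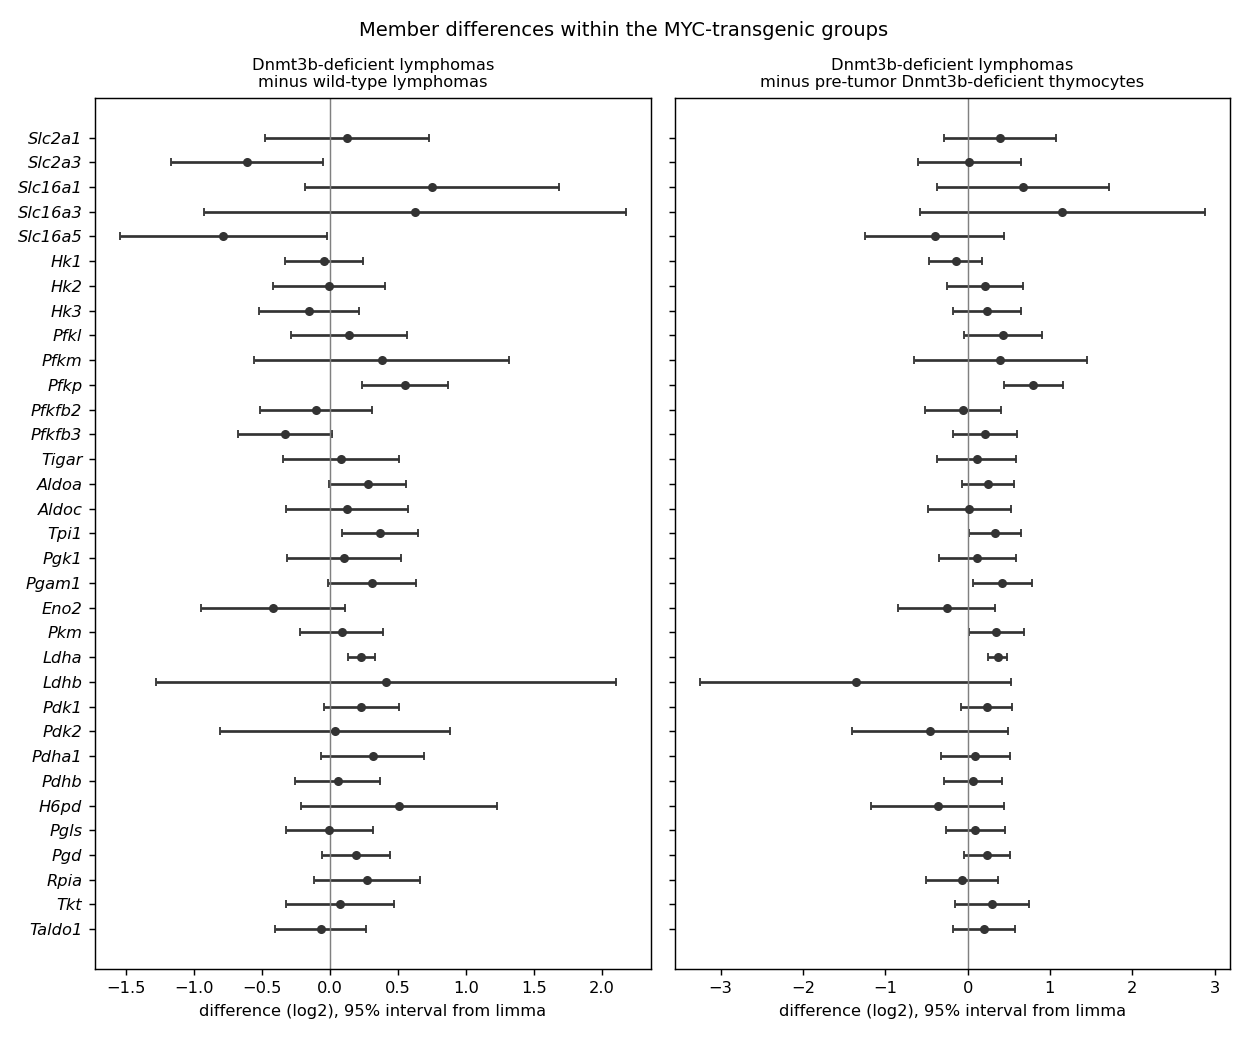
Log2 difference of each of the 33 members between Dnmt3b-deficient lymphomas and wild-type lymphomas (left) and between Dnmt3b-deficient lymphomas and pre-tumor Dnmt3b-deficient thymocytes (right); points are limma estimates and bars their 95% intervals, not adjusted for the number of tests, with a separate scale for each panel. Most intervals span 0 in both panels, the interval of Ldha is the narrowest and those of Slc16a3 and Ldhb are the widest.

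Lymphoma against pre-tumor thymus. Between Dnmt3b-deficient lymphomas and pre-tumor thymocytes of the same genotype 0 of 33 members were called by limma, against 0.0726% of all probe sets. At an unadjusted p under 0.05 there were 5 of the 33, against 9.92% of all probe sets, higher in the lymphomas each time. Ldha came nearest, with 0.37 ± 0.05 (95% interval 0.25 to 0.48, adjusted p = 0.0639), followed by Pfkp with 0.80 ± 0.15 (0.45 to 1.15, adjusted p = 0.136). The others were Pgam1 with 0.42 ± 0.15 (adjusted p = 0.421), Tpi1 with 0.34 ± 0.14 (adjusted p = 0.473) and Pkm with 0.35 ± 0.14 (adjusted p = 0.485). Of all members 25 had a positive and 8 a negative difference, and in 6 of the positive ones the groups did not overlap (Hk2, Pfkp, Tpi1, Pgam1, Pkm, Ldha), against 13.5% of all probe sets. By the probe sets used, no member lay wholly lower in the lymphomas, against 8.33% of all probe sets. The probe set of Ldhb on its own chromosome did, with a difference of -1.48 ± 0.49 (adjusted p = 0.381). The pre-tumor cells were sorted and the lymphomas were not, and T lineage markers were lower in the lymphomas in 14 of 14 genes without a call, values whose part in these differences was not tested.

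The members varied least among the normal arrays, which was not so over all probe sets. The median SD of a member was 0.25 in Dnmt3b-deficient lymphomas, 0.19 in wild-type lymphomas, 0.14 in pre-tumor thymocytes and 0.10 in normal thymocytes, against 0.18, 0.15, 0.14 and 0.15 over 17056 probe sets never at the floor. By the probe sets used, Ldhb had the widest spread of all members in both lymphoma groups, with an SD of 1.07 in Dnmt3b-deficient and 1.28 in wild-type lymphomas. Its probe set among neighbours of chromosome 6 ran more narrowly, from 3.59 to 4.72 in Dnmt3b-deficient and from 3.64 to 4.98 in wild-type lymphomas.

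Of 42 further genes of glycolysis, pyruvate and the pentose phosphate pathway, 10 rose and 2 fell in Dnmt3b-deficient lymphomas, 11 rose and 2 fell in wild-type lymphomas and 8 rose and 2 fell in pre-tumor thymocytes, against the percentages of all probe sets given above. Dld and Dlat, the subunits of the pyruvate dehydrogenase complex that work with Pdha1, both rose: Dld by 2.27 ± 0.31, 2.16 ± 0.31 and 2.40 ± 0.35 in Dnmt3b-deficient lymphomas, wild-type lymphomas and pre-tumor thymocytes, and Dlat by 1.32 ± 0.09, 1.28 ± 0.09 and 1.05 ± 0.10. Pgm3, which acts in amino sugar synthesis, rose by 1.41 ± 0.22, 1.45 ± 0.22 and 1.53 ± 0.25 in the same groups, and G6pc3, a glucose-6-phosphatase, by 1.61 ± 0.11 in Dnmt3b-deficient lymphomas. The adjusted p of these 10 values ran from 0.000173 to 0.006. Eno3, the muscle enolase, rose by 1.24 ± 0.34 in wild-type lymphomas (adjusted p = 0.0359) and by 1.31 ± 0.38 in pre-tumor thymocytes (adjusted p = 0.0442), and Prps1, which turns ribose phosphate into the precursor of nucleotides, by 1.07 ± 0.17 in pre-tumor thymocytes (adjusted p = 0.00542). None of the 42 was called between Dnmt3b-deficient and wild-type lymphomas.

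Of 21 known regulators of these genes, 3 rose and 7 fell in Dnmt3b-deficient lymphomas, 3 rose and 8 fell in wild-type lymphomas and 1 rose and 7 fell in pre-tumor thymocytes, against 11.3%, 11.3% and 11.2% of all probe sets up and 12.2%, 11.9% and 11.3% down. The probe set of Myc read 4.93, 4.29 and 4.63 in Dnmt3b-deficient lymphomas, 5.27, 5.62 and 4.83 in wild-type lymphomas, 5.87 and 5.87 in pre-tumor thymocytes and 7.79, 8.13 and 7.77 in normal thymocytes. It fell, with differences of -3.28 ± 0.23 in Dnmt3b-deficient lymphomas (adjusted p = 0.000226), -2.66 ± 0.23 in wild-type lymphomas (adjusted p = 0.000629) and -2.03 ± 0.26 in pre-tumor thymocytes (adjusted p = 0.00275), and whether it reads the MYC transgene was not analysed here. Txnip, a glucose-sensing inhibitor of glucose uptake, read 9.13, 8.47 and 8.95 in Dnmt3b-deficient lymphomas, 9.05, 9.22 and 8.50 in wild-type lymphomas, 8.97 and 8.52 in pre-tumor thymocytes and 10.36, 10.60 and 10.83 in normal thymocytes. Txnip fell as well, with differences of -1.75 ± 0.26 in Dnmt3b-deficient lymphomas (adjusted p = 0.00264), -1.68 ± 0.26 in wild-type lymphomas (adjusted p = 0.0035) and -1.85 ± 0.29 in pre-tumor thymocytes (adjusted p = 0.00488). Hif1a, the oxygen-regulated subunit of the hypoxia-inducible factor, rose by 1.33 ± 0.37 in Dnmt3b-deficient lymphomas (adjusted p = 0.0355) and by 2.03 ± 0.37 in wild-type lymphomas (adjusted p = 0.00687). Prkaa1, the catalytic subunit of the energy sensor AMPK, rose by 1.54 ± 0.21, 1.56 ± 0.21 and 1.88 ± 0.23 in the 3 groups (adjusted p of 0.00201 to 0.00251).

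Of 17 hypoxia-response genes outside glycolysis, 4 rose in Dnmt3b-deficient lymphomas, 3 rose and 2 fell in wild-type lymphomas and 3 rose in pre-tumor thymocytes. Taken in either direction these counts lie near the 23.5%, 23.3% and 22.5% of all probe sets called in these groups. By direction, 11.3%, 11.3% and 11.2% of all probe sets rose and 12.2%, 11.9% and 11.3% fell. Car12, a carbonic anhydrase, rose by 3.06 ± 0.19, 2.91 ± 0.19 and 2.77 ± 0.21 in these groups, and Ero1a, an oxidase of protein folding, by 2.02 ± 0.22, 1.41 ± 0.22 and 1.61 ± 0.25 (adjusted p of 0.00014 to 0.00488 for both). Ndrg1, also raised by low oxygen in other settings, fell by 2.03 ± 0.54 in wild-type lymphomas (adjusted p = 0.0314). Of 19 cell division genes, 6 rose in Dnmt3b-deficient lymphomas, 4 rose and 1 fell in wild-type lymphomas and 4 rose in pre-tumor thymocytes. The same shares of all probe sets apply, 11.3%, 11.3% and 11.2% up and 12.2%, 11.9% and 11.3% down. In either direction they were 23.5%, 23.3% and 22.5%. The rises were led in each group by the mitotic kinase Bub1 (2.65 ± 0.49, 2.61 ± 0.49 and 3.25 ± 0.55), the topoisomerase Top2a (2.09 ± 0.53, 2.12 ± 0.53 and 2.82 ± 0.60), the proliferation marker Mki67 (1.85 ± 0.36, 1.50 ± 0.36 and 2.37 ± 0.41) and Mcm6, a subunit of the replicative helicase (1.27 ± 0.06, 1.04 ± 0.06 and 0.97 ± 0.07). The mean level of that list was 8.61 to 8.77 in Dnmt3b-deficient lymphomas, 8.44 to 8.57 in wild-type lymphomas, 8.57 to 8.88 in pre-tumor thymocytes and 8.01 to 8.27 in normal thymocytes, and its part in the glycolytic changes was not tested. The median difference of the 19 genes was 0.17 in Dnmt3b-deficient lymphomas, 0.02 in wild-type lymphomas, with 10 positive and 9 negative, and 0.17 in pre-tumor thymocytes.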

How the data were processed

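Each of the 11 arrays gave deposited log2 values for 35512 probe sets; among the submitters' processing notes are the names Partek and RMA, with no version. The deposited log2 values stop at 3.32 (log2 of 10), a floor that 23.6% to 25.7% of the values of an array share. Per the labels 300 ng of total RNA went into labelling. Array medians, 4.55 to 4.62, were close, and the values were used as deposited. Precision is limited by the number of arrays.

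Members and lists were chosen with earlier results of these data known. Gene names came from the annotation of the array platform, in which 21789 probe sets had 1 symbol, 1621 several and 5529 none, besides 6573 with lower IDs that were left out as probable controls. limma 3.58.1 in R 4.3.3 (lmFit, eBayes) fitted 1 mean per group over 23410 probe sets with a gene, all 4 groups sharing 1 estimate of the spread (7 residual and 0.49 prior degrees of freedom), with Benjamini-Hochberg adjustment over all of them. It was tested on simulated data. A difference is printed where its unadjusted p was under 0.05; per-array values follow a rule (the largest called member of each class, the lactate dehydrogenases, hexokinases, glucose transporters and Pkm), and those of Slc16a1, Slc16a3, Pfkm, Pfkp, Aldoa, Pgk1, Pdk1, Pdk2, Pdha1 and Taldo1 were added after their values were seen, as were the promoters printed. The pre-tumor difference of Slc16a3, the probe sets of Hk1, Ldhb, Pgk1 and Pkm on their own chromosome and means of Aldoc, Eno2, Pdhb and Pgd are given beyond that rule. Of the other lists, at most 4 called genes and Myc and Txnip are named. Of the marker lists not given in the report, dendritic cell markers (10 genes) held 3, 0 and 4 falls, B cell markers (7) 0, 0 and 1 rise, erythroid markers (5) 2 falls each and stroma and endothelium markers (12) 2, 4 and 2 falls in Dnmt3b-deficient lymphomas, wild-type lymphomas and pre-tumor thymocytes against normal thymocytes. Over all probe sets 12.2%, 11.9% and 11.3% fell and 11.3%, 11.3% and 11.2% rose in these groups. Promoters come from RefSeq on GRCm38.p6, and 31 of 33 members had one. Alternatives were other normalizations, filters, variance models, probe set rules, a replicate block and leaving out each array.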

Additional observations from a re-analysis of the deposited data

How the results depend on the processing

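Over 24 alternative settings, 0 members were called between Dnmt3b-deficient and wild-type lymphomas and 0 between Dnmt3b-deficient lymphomas and pre-tumor thymocytes in each. Leaving out 1 array gave 15 to 17 called members in Dnmt3b-deficient lymphomas against normal thymocytes, 12 to 16 in wild-type lymphomas and 7 to 14 in pre-tumor thymocytes; the 7 came without pre-tumor replicate 2, which leaves 1 array in that group, assumed to vary like the others. Asking for a fold change of at least 2 as well left 8 members in wild-type lymphomas and 7 in pre-tumor thymocytes, since called rises of Ldha, Pdk1 and Aldoa are smaller, and 12 in Dnmt3b-deficient lymphomas. With the replicate number as a block the counts were 16 in Dnmt3b-deficient lymphomas, 14 in wild-type lymphomas, 9 in pre-tumor thymocytes and 0 in both other comparisons. Deviations of same-numbered samples from their group means correlated from -0.35 to 0.34 over 15 pairs, 2 of them above 0.1. Pairs with different numbers ran from -0.34 to 0.35. For 0 samples did every same-numbered sample of another group correlate better than all the others. With 2 or 3 arrays per group, whose deviations sum to 0, this check cannot exclude pairing. The calls kept in all 24 settings were 10 of 17 in Dnmt3b-deficient lymphomas, 8 of 15 in wild-type lymphomas and 3 of 12 in pre-tumor thymocytes. The fold change cut, 1 of the 24, drops every difference under 1 log2 unit whatever its adjusted p. Lost by that cut alone were Ldha, Pdha1 and Tkt in Dnmt3b-deficient lymphomas. In wild-type lymphomas these were Pfkp, Aldoa, Ldha and Pdk1, and in pre-tumor thymocytes Aldoa and Ldha. The Dnmt3b-deficient lymphoma call of Taldo1 was lost in 15 settings. With only pre-tumor and normal arrays fitted by limma, the pre-tumor calls of Pgk1 (adjusted p = 0.0933), Pdk2 (0.0617), Pdha1 (0.0604) and Taldo1 (0.147) were lost. Hk3 (0.0477) and Pfkl (0.0289) were among the calls gained there, and the count stayed at 12. The pre-tumor difference of Hk1 reversed to -0.31 as the mean of its probe sets and to -0.95 with the probe set on its own chromosome, a setting chosen after seeing the data, under which the counts were 18, 16 and 13; adding probe sets with no gene was also chosen then. Dim genes such as Eno2, Hk3 and Pdk2 lie near the floor, where differences are compressed. Over all probe sets the number called between Dnmt3b-deficient and wild-type lymphomas was 2, with 1 to 19 under the other settings and 81 without wild-type lymphoma 3. Between Dnmt3b-deficient lymphomas and pre-tumor thymocytes it was 17, with 1 to 62 under the others, the 62 without pre-tumor replicate 1 and the 4 of the replicate block among them. Against normal thymocytes a fold change of at least 2 left 2363 of 5491 in Dnmt3b-deficient lymphomas, 2272 of 5449 in wild-type lymphomas (3585 without wild-type lymphoma 1) and 2291 of 5278 in pre-tumor thymocytes (3331 with the block, 2669 with only these 2 groups, 1733 without pre-tumor replicate 2).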
